A study of Mus musculus with 9 samples.

Results

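The liver is the main organ that stores and releases glucose, and the 35 genes described here encode its glycolytic and gluconeogenic enzymes, its glycogen enzymes, the pentose phosphate enzymes and the proteins that control entry and exit of sugar. Their levels were measured by RNA-seq of whole liver from C57BL/6 mice fed a high-fat diet (HFD) that was kept in the freezer (HFDfre, n = 5) or in the fridge (HFDfri, n = 4). The 35 members were taken by gene symbol from a table of 33211 genes, and all 35 were found and passed the filter on low counts that left 14220 genes. Per the methods of the study, which give the substrain as C57BL6/J, the mice were wild-type males aged 8 weeks at the start, both groups ate the same purchased diet for 7 weeks, and the opened diet was held at -20 °C for HFDfre and at 4 °C for HFDfri. There was no group on chow or another diet, so every value is relative to a high-fat diet. The labels do not say whether animals were fasted or at what hour the livers were taken, and levels of many of these genes follow feeding.

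In glycolysis, glucose is phosphorylated, split and oxidized to pyruvate, and gluconeogenesis runs most of the same steps backwards, with bypass enzymes at the steps that cannot be reversed. In hepatocytes the direction is set by insulin and glucagon, partly through the transcription of Pck1, G6pc and Pklr and partly through the bifunctional PFKFB enzymes, whose sugar bisphosphate product activates phosphofructokinase and inhibits fructose bisphosphatase. Glycogen is the storage polymer, built by Gys2 and Gbe1 and broken down by Pygl, and the pentose phosphate pathway turns glucose phosphate into NADPH and ribose.

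None of the 35 members passed an adjusted p of 0.05 in edgeR's quasi-likelihood test, against 150 of the 14220 tested genes, or 1.05%. By DESeq2, 2 members passed, Pfkfb3 and Gckr, against 6.71% of all tested genes, and by limma-voom none did. At an unadjusted p under 0.05 there were 10 members, or 28.6%, against 21.2% of all tested genes. Of these, 4 of the 35 were higher in HFDfri (Pfkfb3, Ldha, Pygl and G6pdx), against 11.4% of all genes. The other 6 of the 35 were lower (Gckr, Aldoa, Gapdh, Pdk2, Tkt and Gcgr), against 9.79%. This split varied with the library left out. Without HFDfre 4, 8 members were higher and 1 was lower at an unadjusted p under 0.05. These were 7 and 5 without HFDfri 1, 2 and 4 without HFDfri 2, and 4 and 6 without HFDfre 2. They were 3 and 2 without HFDfre 1 or HFDfre 5, 2 and 2 without HFDfre 3, and 3 and 1 without HFDfri 3 or HFDfri 4. Of all genes, 13.6% to 25.7% were at an unadjusted p under 0.05 in these fits, in either direction. Shares of all genes by direction were not computed for these fits, so the splits are a description. The groups did not overlap for 2 members, Pfkfb3 and Gckr, or 5.71%, against 7.69% of all genes. Read beside those shares, the counts in either direction did not set the members apart from the other genes. There were 20 members with a higher (57.1%, against 49.1% of all tested genes) and 15 with a lower fitted level in HFDfri. The median log2 fold change of the members was 0.03, against -0.01 over all tested genes. The median size of the change was 0.20 on the log2 scale, against 0.21 over all genes. A size over 0.5 was seen for 2 members, Pfkfb3 and G6pc, or 5.71%, against 17.3% of all tested genes.

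**Figure D1:**
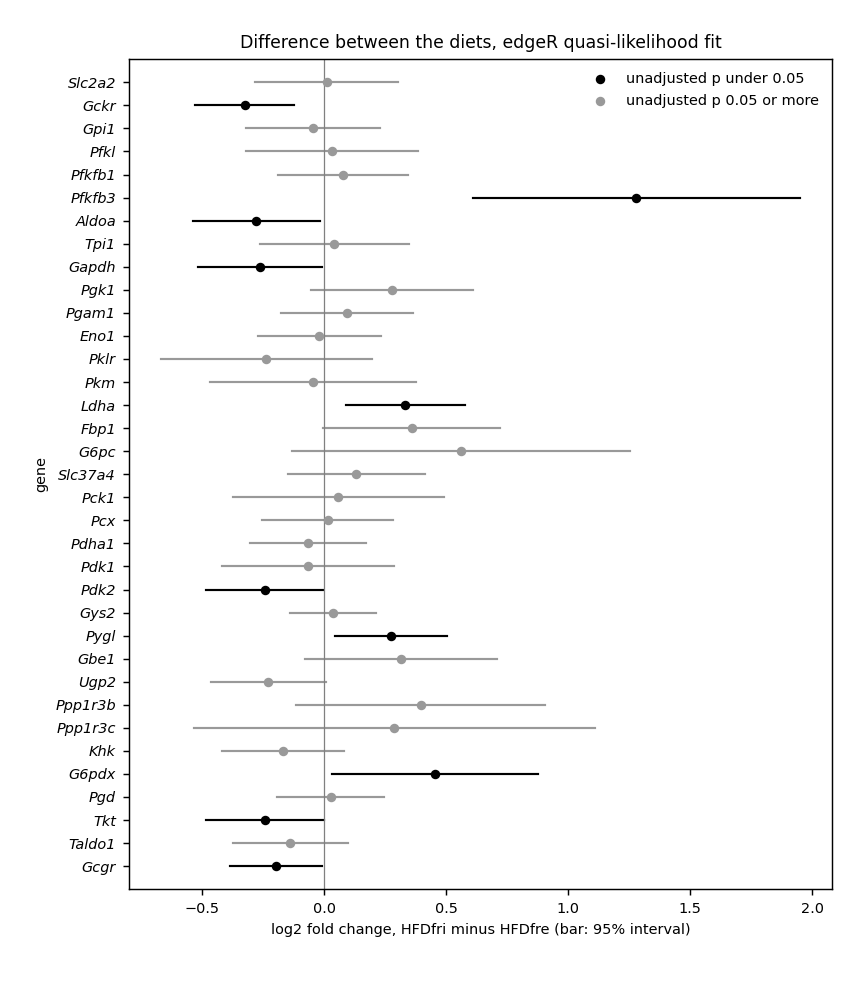
Log2 fold change of each of the 35 genes (HFDfri minus HFDfre, horizontal axis) from the edgeR fit, with 95% intervals as bars; black marks an unadjusted p under 0.05 and grey the other genes. Pfkfb3 lies at 1.28, apart from the other genes, which lie between -0.33 (Gckr) and 0.56 (G6pc).

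The libraries were of similar depth, with 60323908 to 68528457 counts in HFDfre and 58614917 to 69353439 in HFDfri. A ribosomal RNA-like locus, Gm26924, took 1.199% to 11.1% of the counts in HFDfre and 0.466% to 5.21% in HFDfri (two-sided exact permutation p = 0.190, adjusted 0.381 over 4 library measures). Mitochondrial genes took 11.4% to 19.8% of the counts in HFDfre and 8.93% to 13.6% in HFDfri (exact permutation p = 0.0317, adjusted 0.127). All 8 hepatocyte markers were detected, with a summed level of 106100 to 113300 CPM (counts scaled to a common library size after TMM) in HFDfre and 96720 to 132700 CPM in HFDfri. Kupffer cell markers summed to 63.4 to 139 CPM in HFDfre and 73.3 to 97.1 CPM in HFDfri, and 7 of the 15 muscle, adipocyte and pancreas markers (Ckm, Adipoq, Plin1, Prss2, Cpa1, Pnlip and Cpb1) were at 0 in all 9 libraries. Of those lists, Cela1 was at 9.96 to 16.8 CPM in HFDfre and 17.2 to 25.3 CPM in HFDfri, and Cidec, which hepatocytes of fatty liver also express, at 4.25 to 38.9 and 3.73 to 14.7 CPM. Lymphocyte markers summed to 4.37 to 10.3 CPM in HFDfre and 4.26 to 5.59 CPM in HFDfri, with 0 of 7 tested markers higher in HFDfri. Erythroid markers summed to 447 to 614 and 273 to 889 CPM, with 2 of 6 higher in HFDfri and a median log2 fold change of -0.21. Among the 6, Alas2 alone passed the adjusted threshold, as 1.05% of all tested genes did (log2 fold change 0.40 ± 0.08, adjusted p = 0.0486 by edgeR). The globins Hba-a1, Hba-a2, Hbb-bs and Hbb-bt went the other way, at -0.39, -0.39, -0.18 and -0.25. Of 10 pericentral hepatocyte markers 2 were higher in HFDfri (median log2 fold change -0.15) and of 10 periportal ones 4 (median -0.03), against 49.1% of all tested genes. The part of these markers in the results was not tested. In whole liver, fewer cells of a type and less RNA per cell cannot be told apart.

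Libraries HFDfri 1 and HFDfre 4 stood at the ends for these genes, with median deviations from the group mean of -0.12 and 0.23 (log2). HFDfri 1 was the lowest of the 9 libraries for 10 members, or 28.6%, against 17.3% of all tested genes. It was the highest for 11.4% of members, against 15.6% of all tested genes. HFDfre 4 was the highest of the 9 for 13 members, or 37.1%, against 10.6% of all tested genes. The members together took 0.724% of the counts in HFDfri 1 and 1.002% to 1.03% in the other 3 HFDfri libraries, and 0.769% to 1.05% in HFDfre. After TMM they summed to 7969 CPM in HFDfri 1, 9462 to 9666 CPM in the other 3, and 8204 to 10010 CPM in HFDfre. Pck1 alone was at 1119 CPM in HFDfri 1 and at 2198 to 2563 CPM in the other 3, which made up most of the gap between these HFDfri sums.

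**Figure D2:**
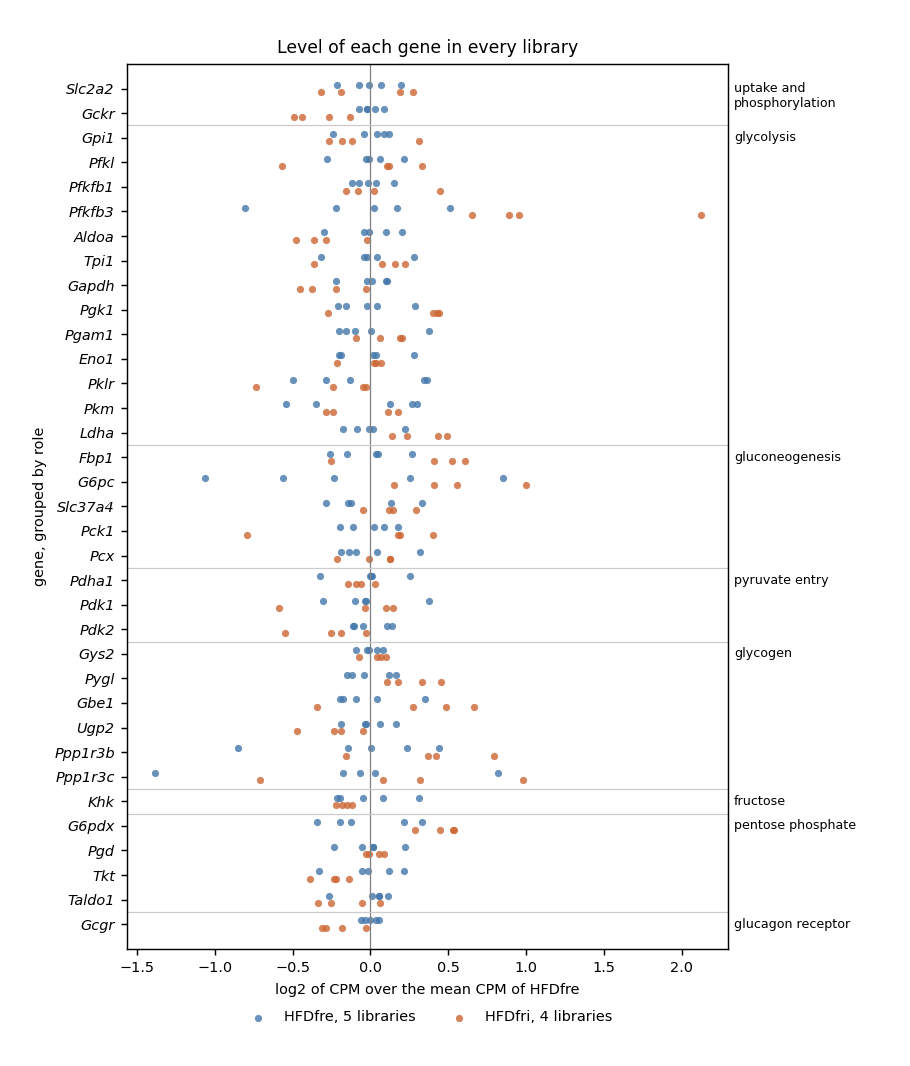
Level of each of the 35 genes in every library, as the log2 of its CPM over the mean CPM of HFDfre, grouped by role; blue points are the 5 HFDfre libraries and orange points the 4 HFDfri libraries. The 4 HFDfri points lie above all HFDfre points for Pfkfb3 and below them for Gckr, and overlap them for the other 33 genes.

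Glucose enters hepatocytes through Slc2a2 (GLUT2), a transporter of low affinity. The mean ± SD of Slc2a2 was 208 ± 21.98 CPM over the 5 HFDfre and 209 ± 41.1 CPM over the 4 HFDfri libraries, a log2 fold change of 0.01 ± 0.13 (SE), with a 95% interval from -0.28 to 0.30. Gckr (ENSMUSG00000059434, chromosome 5, 31297443 to 31327314, GRCm38) encodes a regulatory protein that restrains the phosphorylation of glucose in hepatocytes. Gckr was at 143, 154, 148, 142 and 138 CPM in HFDfre 1 to 5 and at 107, 132, 120 and 103 CPM in HFDfri 1 to 4. Every HFDfri library was below every HFDfre library, the highest of the former at 132 and the lowest of the latter at 138. It differed by a log2 fold change of -0.33 ± 0.09 (SE, 95% interval -0.53 to -0.12), with an adjusted p of 0.0963 by edgeR and of 0.0246 by DESeq2. The change was -0.40 to -0.27 when single libraries were left out and -0.33 within the 5 libraries with under 3% of counts on the ribosomal-like locus, so that its direction did not rest on 1 library.

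Pfkfb3 (ENSMUSG00000026773, chromosome 2, 11471433 to 11554077, GRCm38) encodes the inducible PFKFB isoform, whose kinase activity exceeds its phosphatase activity and which drives glycolysis in many dividing and stimulated cells. It was at 9.68, 6.46, 11.4, 16.1 and 12.7 CPM in HFDfre 1 to 5 and at 20.9, 21.8, 49.1 and 17.7 CPM in HFDfri 1 to 4. Every HFDfri library was above the highest HFDfre library, HFDfre 4, but HFDfri 4 exceeded it by little and HFDfri 3 was far above the others. Means were 11.3 ± 3.57 CPM over HFDfre and 27.4 ± 14.6 CPM over HFDfri (SD), and the log2 fold change was 1.28 ± 0.31 (SE, 95% interval 0.61 to 1.95), a 2.43-fold difference. Its adjusted p was 0.0661 by edgeR, while DESeq2 gave an adjusted p of 0.0221. Without HFDfri 3 the log2 fold change was 0.84 (adjusted p = 0.168 by edgeR), and without HFDfri 1 it was 1.37 (adjusted p = 0.0315 by edgeR). Within the 5 libraries under a 3% ribosomal-like share, which leave out HFDfri 3, it was 0.73 (adjusted p = 0.408 by edgeR). The constitutive liver isoform Pfkfb1, whose phosphatase activity is switched on by glucagon, was at 54.0 ± 4.01 CPM in HFDfre and 57.0 ± 11.3 in HFDfri, a log2 fold change of 0.08 ± 0.12 (SE). Per kilobase of transcript, the mean Pfkfb3 level in HFDfre was 2.43 CPM per kb against 31.1 for Pfkfb1, and in HFDfri 5.91 against 32.8, so Pfkfb1 was the more abundant transcript in both groups.

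The DNA before the start sites of Pfkfb3 and Gckr is shown because they were the members whose groups did not overlap, and that of Ldha and Pck1 because the letters of a cAMP response element, the kind of CREB site through which glucagon acts on Pck1, were found in each. Each is the 250 bases that precede a RefSeq transcription start in GRCm38.p6, written 5′ to 3′ on the gene's strand, with capitals for motif matches. The first Pfkfb3 window is chr2:11553930-11554179 on the minus strand, before the longer transcript, and the second is chr2:11502091-11502340 on the minus strand, before an internal start.
Pfkfb3, outer start: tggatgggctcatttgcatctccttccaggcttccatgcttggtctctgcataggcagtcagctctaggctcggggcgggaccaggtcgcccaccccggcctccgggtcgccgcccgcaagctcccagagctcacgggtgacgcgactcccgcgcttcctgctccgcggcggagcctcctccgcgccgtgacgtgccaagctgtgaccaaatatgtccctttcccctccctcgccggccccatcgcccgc
Pfkfb3, internal start: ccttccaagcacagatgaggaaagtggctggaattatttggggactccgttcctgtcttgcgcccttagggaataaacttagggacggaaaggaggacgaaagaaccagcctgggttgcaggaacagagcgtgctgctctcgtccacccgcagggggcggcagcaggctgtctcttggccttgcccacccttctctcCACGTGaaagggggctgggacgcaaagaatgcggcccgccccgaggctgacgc
Gckr, chr5:31297313-31297562, plus strand: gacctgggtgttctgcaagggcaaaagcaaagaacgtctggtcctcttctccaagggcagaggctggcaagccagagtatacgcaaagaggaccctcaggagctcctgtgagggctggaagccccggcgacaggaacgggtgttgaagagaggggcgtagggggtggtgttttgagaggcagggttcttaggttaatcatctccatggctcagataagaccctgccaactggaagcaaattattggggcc
Ldha, chr7:46845554-46845803, plus strand: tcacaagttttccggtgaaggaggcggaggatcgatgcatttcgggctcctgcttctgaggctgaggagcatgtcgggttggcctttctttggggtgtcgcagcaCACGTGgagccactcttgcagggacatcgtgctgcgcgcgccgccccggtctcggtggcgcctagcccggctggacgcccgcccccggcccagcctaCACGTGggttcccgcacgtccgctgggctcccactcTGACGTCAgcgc
Pck1, chr2:173152823-173153072, plus strand: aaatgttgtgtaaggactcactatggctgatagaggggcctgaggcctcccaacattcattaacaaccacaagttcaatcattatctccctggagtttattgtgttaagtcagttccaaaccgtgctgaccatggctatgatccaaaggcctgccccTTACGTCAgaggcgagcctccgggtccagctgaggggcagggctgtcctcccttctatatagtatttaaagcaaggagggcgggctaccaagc

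Motif letters were searched on both strands of the 51 windows that RefSeq gave for 33 of the 35 members. The E-box CACGTG, the same on both strands, was in 6 of these windows, or 11.8%, against 6.02% of all 32851 mouse windows. The 6 members were Khk, Ldha, Pcx, Pdk2, Pfkfb3 and Ppp1r3c, and the Pfkfb3 match began 53 bases before the internal start. The full element TGACGTCA was in 1.55% of all windows and in that of Ldha alone among the members, 12 bases before the start, and that window also held 2 E-boxes. The other Ldha window, chr7:46846832-46847081 before a second start and not printed, held none of these motifs. The form TTACGTCA (or TGACGTAA on the other strand) was in 0.447% of all windows and in that of Pck1 alone among the members, 93 bases before the start. Other forms were not searched, and the window of G6pc, not printed, holds the related letters TTACGTAA. In the printed windows no match overlapped another. The members with an E-box did not share a direction, with log2 fold changes from -0.24 (Pdk2) to 1.28 (Pfkfb3), and a match is only a run of letters.

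Fitted differences were small for most steps from glucose phosphate to triose phosphate. Gpi1, which interconverts the phosphates of glucose and fructose, had a log2 fold change of -0.05 ± 0.13 (SE), Pfkl, the liver phosphofructokinase, 0.03 ± 0.16, and Tpi1, which interconverts the triose phosphates, 0.04 ± 0.14. Aldoa, the aldolase typical of muscle, was at 101, 71.3, 93.99, 87.02 and 85.1 CPM in HFDfre and at 86.4, 68.1, 62.8 and 71.9 CPM in HFDfri. The groups overlapped, and the log2 fold change was -0.28 ± 0.12 (SE, adjusted p = 0.215 by edgeR).

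Gapdh, which oxidizes glyceraldehyde phosphate, is used in many assays as a reference gene. It was at 1588, 1270, 1460, 1591 and 1494 CPM in HFDfre 1 to 5 and at 1453, 1140, 1080 and 1269 CPM in HFDfri 1 to 4. HFDfri 2, 3 and 4 were below the lowest HFDfre library, HFDfre 2, while HFDfri 1 lay within the HFDfre range. Gapdh had a log2 fold change of -0.26 ± 0.12 (SE, 95% interval -0.52 to -0.01; adjusted p = 0.227 by edgeR). Pgk1, the next enzyme, was at 111 to 156 CPM in HFDfre and at 106, 174, 172 and 169 CPM in HFDfri 1 to 4. In 3 of the 4 HFDfri libraries it was above every HFDfre library, and in HFDfri 1 it was below all of them. Pgk1 had a log2 fold change of 0.28 ± 0.15 (SE, adjusted p = 0.322 by edgeR) with all libraries and 0.41 (adjusted p = 0.0425 by edgeR) without HFDfri 1. Gapdh, Pgk1, Pgam1, Eno1, Aldoa, Tpi1 and Ldha have processed pseudogenes in the mouse genome, and how reads shared with them were counted is not given in the sources used here.

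Of the last steps, Ldha had the largest fitted difference. Pgam1 had a log2 fold change of 0.09 ± 0.12 (SE) and of 0.20 without HFDfre 4, Eno1, the enolase, -0.02 ± 0.12, and Pkm, the pyruvate kinase of most other tissues, -0.04 ± 0.19 at 6.67 ± 1.66 CPM in HFDfre. Pklr, the liver pyruvate kinase and a target of insulin and dietary carbohydrate, averaged 287 ± 76.2 CPM in HFDfre and 244 ± 50.7 CPM in HFDfri (SD), with a log2 fold change of -0.24 ± 0.20 (SE, 95% interval -0.67 to 0.20) and of -0.10 without HFDfri 4 and -0.13 without HFDfre 4 or HFDfre 5. Its exons overlap those of Hcn3 on the other strand by 711 bases, and those of Pkm overlap Gm49759 on the same strand by 767 bases. Other members with overlaps on the other strand include Gpi1 (741 bases) and Pdha1 (603 bases). The use of strand in counting, and how reads in such overlaps were assigned, are not given in the sources used here. Ldha, which interconverts pyruvate and lactate, was at 472, 507, 443, 584 and 498 CPM in HFDfre and at 678, 590, 551 and 706 CPM in HFDfri. Only HFDfri 3 was below the highest HFDfre library, HFDfre 4. Ldha differed by a log2 fold change of 0.33 ± 0.11 (SE, 95% interval 0.09 to 0.58; adjusted p = 0.129 by edgeR), and it was 0.28 to 0.39 when single libraries were left out.

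**Figure D3:**
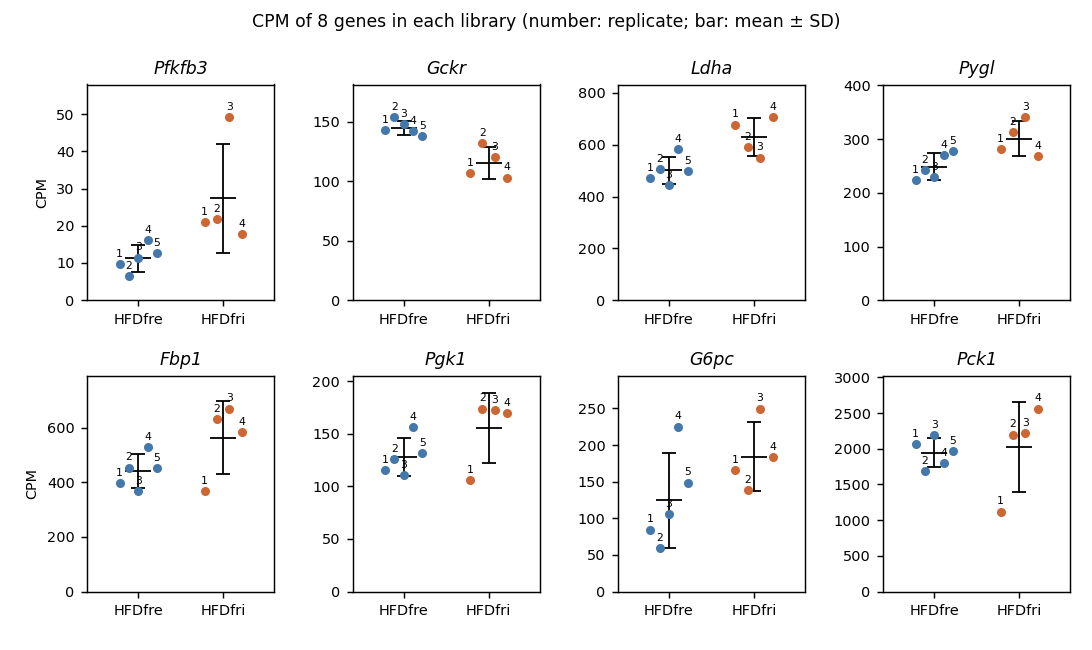
CPM of 8 genes in each library (vertical axes from 0), by diet group; points carry the replicate number, and bars give the mean ± SD of 5 HFDfre and 4 HFDfri libraries. Gckr and Pfkfb3 separate the groups, and HFDfri 1 is the lowest HFDfri library for Fbp1, Pgk1 and Pck1.

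All 5 gluconeogenic genes had a fitted log2 fold change above 0, against 49.1% of all tested genes, with a median of 0.13. None of the 5 had an unadjusted p under 0.05, and Pcx and Pck1 changed sign when single libraries were left out. Fbp1, the fructose bisphosphatase of liver, was at 397, 454, 367, 529 and 451 CPM in HFDfre 1 to 5 and at 368, 633, 670 and 584 CPM in HFDfri 1 to 4. HFDfri 2, 3 and 4 were above every HFDfre library and HFDfri 1 was next to the lowest of all. The log2 fold change was 0.36 ± 0.17 (SE, 95% interval -0.01 to 0.72; adjusted p = 0.244 by edgeR), and without HFDfri 1 it was 0.50 (adjusted p = 0.0311 by edgeR). Without HFDfri 1, 3 members passed the adjusted threshold (Fbp1, Pgk1 and Pfkfb3), against 7.65% of the 14463 genes then tested, or 1106 genes, so that the share of members stayed close to that of all genes.

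G6pc, the catalytic subunit of the phosphatase that frees glucose in the endoplasmic reticulum, was at 84.5, 59.7, 106, 225 and 149 CPM in HFDfre and at 165, 139, 250 and 183 CPM in HFDfri. HFDfre spanned from the lowest to the second highest library of all. The log2 fold change of 0.56 ± 0.32 (SE) therefore had a wide 95% interval, from -0.13 to 1.26 (adjusted p = 0.338 by edgeR), and it was 0.89 without HFDfre 4 and 0.38 without HFDfre 2. Slc37a4, the transporter that brings glucose phosphate to that phosphatase, had a log2 fold change of 0.13 ± 0.13 (SE), which was 0.23 without HFDfre 4 and 0.06 without HFDfre 1. Pck1, which makes phosphoenolpyruvate from oxaloacetate, was at 2061, 1693, 2196, 1795 and 1970 CPM in HFDfre and at 1119, 2198, 2218 and 2563 CPM in HFDfri. HFDfri 1 was the lowest and HFDfri 4 the highest of the 9 libraries. Its log2 fold change was 0.06 ± 0.20 (SE, 95% interval -0.37 to 0.49), 0.25 without HFDfri 1 and -0.07 without HFDfri 4. Pcx, the mitochondrial pyruvate carboxylase, was at 405 ± 60.6 CPM and 409 ± 43.9 CPM, a log2 fold change of 0.02 ± 0.12 (SE).

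**Figure D4:**
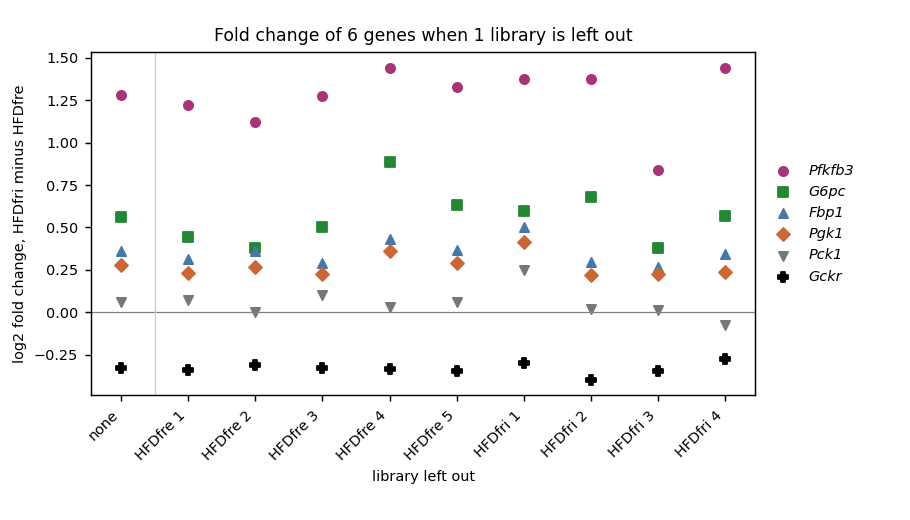
Log2 fold change (HFDfri minus HFDfre, vertical axis) of 6 genes with all 9 libraries (first position) and after each library was left out in turn. Pfkfb3 is at 0.84 without HFDfri 3 and between 1.12 and 1.44 without any other library, Gckr stays between -0.40 and -0.27, and Pck1 lies on both sides of 0.

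At the entry of pyruvate into the mitochondrion, Pdha1, a subunit of pyruvate dehydrogenase, had a log2 fold change of -0.07 ± 0.11 (SE) and the kinase Pdk1, which inhibits the complex, -0.07 ± 0.16. The kinase Pdk2 was at 110, 97.3, 92.99, 108 and 93.4 CPM in HFDfre and at 68.7, 98.3, 84.3 and 88.1 CPM in HFDfri. HFDfri 2 lay among the HFDfre libraries and the other 3 lay below them. Pdk2 had a log2 fold change of -0.24 ± 0.11 (SE, adjusted p = 0.231 by edgeR).

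Of the 6 glycogen genes, 5 had a fitted log2 fold change above 0, or 83.3% against 49.1% of all tested genes, and the median was 0.28. Pygl, the liver glycogen phosphorylase, was at 224, 242, 229, 271 and 278 CPM in HFDfre and at 281, 313, 340 and 268 CPM in HFDfri. HFDfri 4 was below HFDfre 4 and 5, and the other 3 HFDfri libraries were above every HFDfre library. Pygl differed by a log2 fold change of 0.27 ± 0.11 (SE, 95% interval 0.04 to 0.50; adjusted p = 0.171 by edgeR). Gys2, the liver glycogen synthase, was the steadiest of the 35 members in HFDfre after Gcgr and Gckr, at 189 ± 8.65 CPM in HFDfre and 194 ± 9.81 in HFDfri, a coefficient of variation (CV) of 4.58% and 5.07%. Its log2 fold change was 0.04 ± 0.08 (SE), with a 95% interval from -0.14 to 0.21. The branching enzyme Gbe1 had a log2 fold change of 0.32 ± 0.18 (SE), 0.18 without HFDfri 2 and 0.47 without HFDfri 1, and Ugp2, which makes UDP-glucose, was the exception in direction at -0.23 ± 0.11 (adjusted p = 0.254 by edgeR).

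The glycogen targeting subunits of protein phosphatase, which activate glycogen synthase, varied widely between animals. Ppp1r3b, the main one of liver, was at 91.5, 165, 149, 224 and 194 CPM in HFDfre and at 148, 221, 286 and 213 CPM in HFDfri, a log2 fold change of 0.40 ± 0.23 (SE, adjusted p = 0.362 by edgeR) and of 0.23 without HFDfre 1 or HFDfri 3. Ppp1r3c was at 9.74 to 44.8 CPM in HFDfre and 15.6 to 50.2 CPM in HFDfri, with a CV of 49.4% and 46.4% and a log2 fold change of 0.29 ± 0.38 (SE). The groups overlapped widely for both. Among the members, G6pc (CV 52.0% in HFDfre), Ppp1r3c and Pfkfb3 (CV 31.7% in HFDfre and 53.2% in HFDfri) had the widest relative spread.

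Khk, the kinase of fructose, was at 408 ± 63.3 CPM in HFDfre and 363 ± 11.1 in HFDfri (log2 fold change -0.17 ± 0.11, SE, and -0.08 without HFDfre 4). In the pentose phosphate pathway, G6pdx, the NADPH-producing first enzyme, was the least abundant member, at 2.20, 2.02, 1.38, 1.601 and 1.53 CPM in HFDfre and at 2.53, 2.38, 2.13 and 2.52 CPM in HFDfri. Only HFDfre 1 exceeded the lowest HFDfri library, HFDfri 3. G6pdx had a log2 fold change of 0.45 ± 0.19 (SE, adjusted p = 0.208 by edgeR). The deviations of G6pdx from its group means correlated with the ribosomal-like share (r = 0.71, 9 libraries), and with that share as a covariate its log2 fold change was 0.63 (adjusted p = 0.157 by edgeR). Its exons overlap those of Ikbkg on the other strand by 418 bases. Pgd, the next NADPH-producing enzyme, had a log2 fold change of 0.03 ± 0.10 (SE) and Taldo1, the transaldolase, -0.14 ± 0.11. Tkt, the transketolase, was at 95.2, 69.6, 84.4, 102 and 86.8 CPM in HFDfre and at 74.3, 79.7, 67.0 and 75.1 CPM in HFDfri (log2 fold change -0.24 ± 0.11, SE, adjusted p = 0.236 by edgeR). HFDfre 2 was below 3 of the 4 HFDfri libraries for Tkt, and the other 4 HFDfre libraries were above all of them.

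Gcgr, the glucagon receptor, was at 289, 267, 273, 279 and 287 CPM in HFDfre and at 273, 229, 225 and 246 CPM in HFDfri. HFDfri 2, 3 and 4 were below every HFDfre library and HFDfri 1 lay among the HFDfre libraries. The log2 fold change was -0.20 ± 0.09 (SE, 95% interval -0.39 to -0.01; adjusted p = 0.224 by edgeR), and -0.27 to -0.16 when single libraries were left out.

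Levels between genes were compared per kilobase of the principal transcript. In HFDfre the highest mean levels were those of Gapdh at 1043 CPM per kb, Pck1 at 730, Fbp1 at 297, Ldha at 284 and Khk at 258, followed by Eno1 at 156, Ugp2 at 154 and Tpi1 at 153, which lay within their spread of each other. The lowest were Pfkl at 5.60, Pkm at 2.74, Pfkfb3 at 2.43 and G6pdx at 0.658. In HFDfri the same 5 genes led, with Gapdh at 870 CPM per kb and Pck1 at 761, and Pfkfb3 at 5.91 lay beside Pfkl at 5.73 and above Pkm at 2.66. For pyruvate kinase the liver gene exceeded its counterpart of other tissues, with 98.9 CPM per kb for Pklr against 2.74 for Pkm in HFDfre.

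The deviations of each gene from its group mean (log2 CPM, 9 libraries) were correlated between members, as a description of how they varied from animal to animal. The points share their library, its depth and its composition. Of 595 pairs, 104 had r over 0.7, 16 had r under -0.7, and the median r was 0.27. No such share was computed over pairs of all tested genes, so these counts do not set the members apart. The positive pairs named here are among the highest of the 595. Without HFDfre 4 the median was 0.13 and 34 pairs had r under -0.7, and without HFDfre 2 or HFDfre 3 there were 32 and 34 such pairs. Fbp1 varied with Pgk1 (r = 0.98), Pdk1 (0.95), Pfkl (0.95), Gbe1 (0.95) and Tpi1 (0.91), and in all 13 members had r over 0.7 with Fbp1, enzymes of both directions of the pathway among them. Gapdh varied with Taldo1 (r = 0.97), Gpi1 (0.94), Gcgr (0.91) and Aldoa (0.90), and Pdha1 with Pgd (0.97). With all 9 libraries, r was -0.49 between Gapdh and Pgk1, which catalyse consecutive steps. They parted most in HFDfri 1, with deviations of -0.52 for Pgk1 and 0.24 for Gapdh. The r of this pair without HFDfri 1 is not given here, so the pair is not read as lying in different sets.

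Some negative relations rested on HFDfri 1. With all libraries r was -0.61 between Fbp1 and Gapdh and -0.77 between Fbp1 and Gcgr, and without HFDfri 1 (8 libraries) these were -0.12 and -0.24. Between Pck1 and Pfkfb1 r was -0.83 with and -0.10 without HFDfri 1. Pairs under -0.7 numbered 16 without it too, and 3 members had r under -0.5 with Fbp1 in place of 6. Of the positive relations, r without HFDfri 1 was 0.94 for Fbp1 and Pgk1, 0.90 for Fbp1 and Pdk1, 0.82 for Fbp1 and Pfkl, 0.96 for Gapdh and Taldo1 and 0.93 for Gapdh and Gpi1. Members with r over 0.7 with Fbp1 went from 13 to 10, those with r over 0.7 with Gapdh from 5 to 8, and pairs over 0.9 from 20 to 12. Between Pklr and Pkm r was -0.85 with and -0.84 without HFDfri 1.

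**Figure D5:**
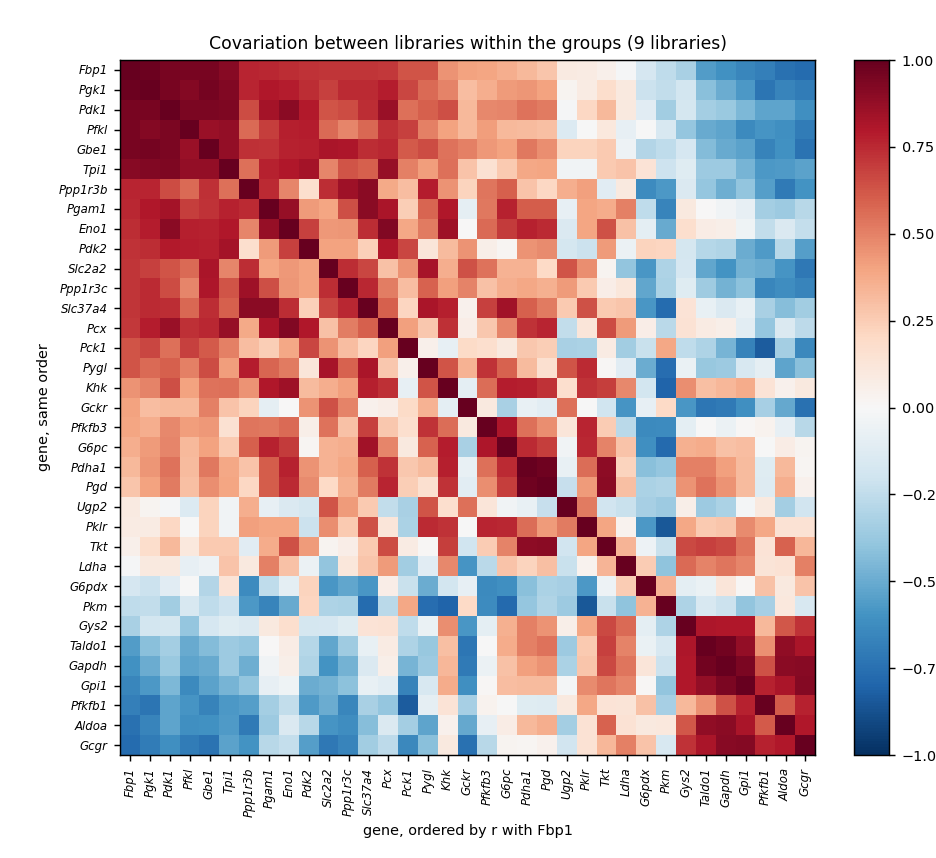
Pearson r of the deviations from the group means (log2 CPM, 9 libraries) between all 35 genes, ordered on both axes by r with Fbp1 and coloured from -1 (blue) to 1 (red). The red block at the upper left holds Fbp1, Pgk1, Pdk1, Pfkl, Gbe1 and Tpi1, and that at the lower right holds Gys2, Taldo1, Gapdh, Gpi1, Pfkfb1, Aldoa and Gcgr.

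Of 71 other genes of carbohydrate metabolism, 64 were tested, and their median log2 fold change was -0.07. In HFDfri 25 had a higher fitted level, or 39.1% against 49.1% of all tested genes, and 39 had a lower one. Only H6pd passed the adjusted threshold, 1 of 64 genes against 1.05% of all tested genes. H6pd is the hexose phosphate dehydrogenase that makes NADPH inside the endoplasmic reticulum, where it draws on the same sugar phosphate that Slc37a4 imports and G6pc hydrolyses. It was at 234, 231, 208, 236 and 229 CPM in HFDfre and at 455, 306, 307 and 314 CPM in HFDfri. Every HFDfri library was above every HFDfre library, and HFDfri 1 was far above the rest. The log2 fold change of H6pd was 0.60 ± 0.12 (SE, 95% interval 0.33 to 0.87; adjusted p = 0.0467 by edgeR), and 0.43 without HFDfri 1 (adjusted p = 0.0210 by edgeR). It passed in 10 of 21 alternatives, with adjusted p-values from 0.000786 to 0.438. The groups did not overlap for 5 of the 64 genes, or 7.81%, against 7.69% of all genes. They were H6pd and, chosen after their values were seen, Mpc1 of the mitochondrial pyruvate carrier (log2 fold change -0.41 ± 0.11, adjusted p = 0.0798 by edgeR), Pdhb of pyruvate dehydrogenase (0.32 ± 0.10, adjusted p = 0.112 by edgeR), the muscle glycogen synthase Gys1 (0.51 ± 0.21, adjusted p = 0.193 by edgeR) and Gsk3b, a kinase that inhibits glycogen synthase (-0.22 ± 0.10, adjusted p = 0.231 by edgeR).

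Of 27 transcription factors and signalling genes that control these pathways, all were tested and none passed by edgeR. In HFDfri 17 were higher, or 63.0% against 49.1% of all tested genes, and 10 were lower. At an unadjusted p under 0.05 there were 9, or 33.3%, against 21.2% of all tested genes, of which 7 were higher, against 11.4%, and DESeq2 called 4, against 6.71%. The 4 with the smallest p were Hnf4a, Bhlhe40, Foxa2 and Nr0b2, and being chosen by p their values are a description. Hnf4a, the nuclear receptor of hepatocyte identity that acts on Pck1 and G6pc, was at 302, 321, 312, 356 and 343 CPM in HFDfre and at 489, 402, 509 and 400 CPM in HFDfri. Every HFDfri library was above every HFDfre library, with a log2 fold change of 0.46 ± 0.10 (SE, adjusted p = 0.0566 by edgeR). Bhlhe40, a repressor that binds E-boxes, had a log2 fold change of 0.61 ± 0.16 (SE), the pioneer factor Foxa2 -0.64 ± 0.17, and Nr0b2, the bile acid-induced repressor SHP, 0.60 ± 0.19, with adjusted p-values of 0.0801, 0.0854 and 0.117 by edgeR. The groups overlapped for these last 3 genes.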

How the data were processed

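Liver RNA-seq libraries of mice fed HFDfre (n = 5) or HFDfri (n = 4) were grouped by the labels, which name no separate cultures or pools beyond 1 library per sample, so p-values measure the spread between these libraries. Per the labels, the submitters' processing notes name HISAT2, StringTie and the build mm10 (GRCm38). Versions, annotation and strand setting are not given in the sources used here. The labels name a NEBNext Ultra kit and the study's methods another, KAPA RNA HyperPrep. The authors deposited estimated counts per gene as whole numbers, unscaled. Among low values 4 is in excess, as it stands 3990 times in the table where 3 stands 2172 and 5 stands 1840 times, so count models hold approximately.

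Genes kept by filterByExpr (14220 of 19775 with a count) were compared by edgeR 4.0.16 (R 4.3.3; quasi-likelihood F-test, TMM, no covariate), as HFDfri minus HFDfre, two-sided, with Benjamini-Hochberg adjustment over all tested genes. SE is the size of the log2 fold change over the square root of F. CPM are after TMM, log2 CPM used a prior count of 2, and library measures had exact permutation tests over 126 splits. Coordinates and transcript lengths are from GENCODE M21, which held 96.5% of the identifiers, and promoter windows from RefSeq. Alternatives were DESeq2 1.42.0, limma-voom (limma 3.58.1), DESeq2 size factors, library totals, totals without mitochondrial, ribosomal-like and Mup genes, no filter, at least 10 counts in every library, robust dispersion, a replicate block, the ribosomal-like share as covariate, batch or limit of 3%, and leaving out each library. The scripts were tested on simulated data.

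The members and lists were chosen with earlier results of these data known. The genes named are all members, other carbohydrate genes past the adjusted threshold and, as no regulator passed, the 4 regulators with the smallest p. Outside that rule, 4 other carbohydrate genes were named after their values were seen, because their groups did not overlap, as were markers with values. Some items are not reported here.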

Additional observations from a re-analysis of the deposited data

Results flagged for a closer look

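Of 80 sets of values, 1 for each named gene and group, 5 had a library whose gap to its nearest neighbour was over Dixon's critical value at the 95% level, and about 4 are expected by chance, 1 in 20. In HFDfri 1, Pgk1 was lowest at a log2 CPM of 6.73 against 7.40 to 7.44 in the other HFDfri libraries (gap ratio 0.948), and Eno1 was lowest at 8.09 against 8.33 to 8.37 (0.849). H6pd was highest in HFDfri 1, at 8.83 against 8.26 to 8.30 (0.931), and lowest in HFDfre 3, at 7.70 against 7.84 to 7.88 (0.760). Taldo1 was lowest in HFDfre 2, at 6.504 against 6.78 to 6.88 (0.731). The library HFDfri 1 gave 3 of the 5, 2 of them members.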

How the results depend on the processing

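The count of members past the adjusted threshold was 0 (1.05% of all genes) and became 2 with DESeq2 (6.71%) and 1 with a batch term for the ribosomal-like share (3.38%). That of other carbohydrate genes was 1 and became 2 with DESeq2 and 0 with no filter, with the replicate block, with the ribosomal-like share as a covariate and within the libraries under a 3% share. That of regulators was 0 and became 4 with DESeq2, 2 with the batch term, and 1 with robust dispersion and with totals without mitochondrial, ribosomal-like and Mup genes. Members at an unadjusted p under 0.05 were 10, and 4 with library totals (4 higher and 0 lower, against 4 and 6), 5 with the covariate and 3 within the libraries under a 3% share, where 17.3%, 19% and 9.67% of all genes were called, against 21.2%. There, with 2 against 3 libraries, 8 members did not overlap, against 29.3% of all genes. Leaving out single libraries gave 0 to 3 members past the threshold (0.0426% to 7.65% of all genes) and 4 to 12 at an unadjusted p under 0.05 (13.6% to 25.7%). It gave 2 to 6 members with no overlap (8.73% to 17.9% of all genes), 16 to 23 with a higher level and a median of -0.02 to 0.06. Past the threshold were then 0 to 4 other carbohydrate genes and 0 to 4 regulators. The unadjusted count was 4 without HFDfre 3, HFDfri 3 or HFDfri 4, 5 without HFDfre 1 or HFDfre 5 and 6 without HFDfri 2, and H6pd passed without HFDfri 1 or 2 but not without any other library. When single libraries were left out, regulators passed only without HFDfri 1 (4) or HFDfri 2 (2). The causes were not tested.

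The sign turned for Slc2a2 with at least 10 counts in every library (-0.0018), limma-voom (-0.0041), the covariate (-0.044) and under a 3% share (-0.16); for Eno1 with library totals (0.043), the covariate (0.018), the batch term (0.028) and under a 3% share (0.035); for Pkm with library totals (0.036) and under a 3% share (0.0087); for Pck1 with limma-voom (-0.0048) and under a 3% share (-0.094); and for Pdk1 with library totals (0.0029), the covariate (0.0024), the batch term (0.027) and under a 3% share (0.0085). Leaving out single libraries turned it for these and others, within -0.089 to 0.094 (Slc2a2), -0.20 to 0.022 (Gpi1), -0.081 to 0.18 (Pfkl), -0.081 to 0.15 (Pfkfb1), -0.035 to 0.14 (Tpi1), -0.072 to 0.060 (Eno1), -0.15 to 0.037 (Pkm), -0.075 to 0.25 (Pck1), -0.035 to 0.11 (Pcx), -0.14 to 0.0046 (Pdha1), -0.14 to 0.060 (Pdk1), -0.042 to 0.59 (Ppp1r3c) and -0.035 to 0.087 (Pgd). The other 22 members kept their sign in all 21 alternatives.

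With the replicate number as a block, 0 members and 0 of all genes passed, 8 members had an unadjusted p under 0.05, 20 were higher and the median was 0.01. Libraries of the same number correlated at 0.03, 0.08, -0.14 and 0.03. The numbers follow the order in the titles, so these values show no pairing by that number and cannot exclude pairing of another kind. With 5 against 4 animals, the 95% intervals bound the members' differences only to the sizes given. The correlations between members without single libraries were added after the data were seen, and 85 to 123 pairs had r over 0.7 and 14 to 34 under -0.7.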
